A study of Mus musculus with 108 samples.

Results

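Grik1, Grik2, Grik3, Grik4 and Grik5, which encode the 5 subunits of kainate receptors, and Grid1, which encodes the delta glutamate receptor GluD1, were taken by gene symbol from a table of 53465 genes, 6 genes in all. Their levels were followed in 3 brain regions, the cortex (CX), the hippocampus (HIP) and the cerebellum (CB), in wild type (WT) and Cul3+/- (HET) mice before birth (embryonic day, E17.5), on postnatal day 7 (P7) and in adults (P35). RNA of 36 mice was sequenced in 108 libraries, 1 for each region of a mouse, with 6 mice of each genotype at each period. All mice had the background that the labels spell C56Bl/6N, and the HET mice carried in the germline an insertion of 1 base in exon 6 of Cul3, made with CRISPR/Cas9 and kept in a line from 1 founder. The WT mice carried no insertion, and no group was given an agent. The comparisons addressed how the receptor genes differed between regions and periods, and whether they differed with the loss of 1 working copy of Cul3, which encodes the scaffold of a ubiquitin ligase.

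Kainate receptors are tetrameric channels gated by glutamate that act on both sides of the synapse and set network excitability. The low-affinity subunits GluK1, GluK2 and GluK3, encoded by Grik1, Grik2 and Grik3, can form channels by themselves, whereas the high-affinity subunits GluK4 and GluK5, encoded by Grik4 and Grik5, reach the membrane as working channels only together with a low-affinity subunit. GluD1 is not opened by glutamate in the usual way. It joins synapses by binding cerebellins, which in turn bind presynaptic neurexins.

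The 6 genes share a conserved segment that lines the channel pore, and 60 coding bases around the same stretch of it are shown to compare the genes where the receptor class is conserved. The sequences are from GRCm38 with the GENCODE vM21 annotation and are written 5′ to 3′ on the coding strand. Capitals mark bases that differ from Grik2.
Grik1: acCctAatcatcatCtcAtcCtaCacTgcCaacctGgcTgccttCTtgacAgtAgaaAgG
Grik2: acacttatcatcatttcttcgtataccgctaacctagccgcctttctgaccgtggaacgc
Grik3: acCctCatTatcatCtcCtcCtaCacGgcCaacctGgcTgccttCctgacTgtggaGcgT
Grik4: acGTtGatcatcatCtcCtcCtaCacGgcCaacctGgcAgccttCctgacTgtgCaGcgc
Grik5: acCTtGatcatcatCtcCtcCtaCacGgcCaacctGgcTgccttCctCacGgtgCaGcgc
Grid1: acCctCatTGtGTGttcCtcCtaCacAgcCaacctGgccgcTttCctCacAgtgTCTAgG

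The window lies at chr16:87935994-87936053 on the minus strand in exon 14 of Grik1, at chr10:49240675-49240734 on the minus strand in exon 13 of Grik2, and at chr4:125694024-125694083 on the plus strand in exon 13 of Grik3. It lies at chr9:42543854-42543913 on the minus strand in exon 15 of Grik4, at chr7:25015904-25015963 on the minus strand in exon 16 of Grik5, and at chr14:35452323-35452382 on the plus strand in exon 12 of Grid1. All 6 windows are coding exon with no intron inside. Against Grik2, Grik1 differed at 16 of the 60 bases, Grik3 at 15, Grik4 at 15, Grik5 at 16 and Grid1 at 22. Of these, 14, 15, 13, 14 and 16 were at the third base of a codon.

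Over the whole coding sequence the genes fell into the classes of their subunits. Grik1, Grik2 and Grik3 were 71.8% to 72.7% identical to each other and Grik4 was 72.3% identical to Grik5, while every pair across the classes, Grid1 included, was 58.2% to 64.1% identical. The longest exact run that any pair shared in their annotated transcripts, untranslated parts included, was 61 bases, between Grik3 and Grid1, which is shorter than the read of 100 bases given in the labels.

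Checks of the libraries preceded the comparisons. Cul3 itself stood between 161 and 218 CPM (counts scaled to library size with TMM factors) in the WT libraries and between 85.5 and 125 CPM in the HET libraries, without overlap in any of the 9 datasets, a dataset being 1 region at 1 period. Its difference, HET minus WT, ran from -0.74 ± 0.07 (SE) in P35 CB to -0.99 ± 0.04 in P35 HIP on the log2 scale. For 2 adult mice the labels and the study's sample table gave opposite genotypes, and their 6 libraries were left out, which left 5 mice of each genotype at P35. Their Cul3 levels, scaled over all libraries, were 197, 204 and 228 CPM in CX, HIP and CB of the mouse labelled WT, against 96.5, 98.8 and 121 CPM in the mouse labelled HET. Library totals ran from 15126114 to 44411282 counts. Summed markers of cerebellum (En2, Barhl1, Zic1 and Pcp2) reached 591 to 1662 CPM in CB against at most 268 CPM in CX and HIP. Those of hippocampus (Zbtb20, Prox1, Wfs1 and Lhx9) reached 387 to 1930 CPM in HIP against at most 262 CPM in CX and 387 CPM in CB.

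In most contrasts the receptor genes differed between regions or periods past the threshold of the test. The test concerns means, and in some of these contrasts the libraries overlapped. In WT mice 42 of 54 region contrasts of the 6 genes passed an adjusted p of 0.1 in edgeR's quasi-likelihood test, with mouse as a block. At E17.5, 3 of 6 genes passed between CX and HIP, where 46.5% of all genes did, 3 between CX and CB (61.7%) and 4 between HIP and CB (49.5%). At P7, 4 passed between CX and HIP (57.0%), 6 between CX and CB (82.9%) and 6 between HIP and CB (78.2%). At P35 the counts were 4 (51.4%), 6 (75.3%) and 6 (75.0%) for the same contrasts. A large share of all genes passed as well, so the counts by themselves do not set the receptor genes apart, and the sizes and directions below carry the description. HET mice, which share no library with these contrasts, passed in 43 of 54, with 3, 4 and 4 genes at E17.5 (53.0%, 61.4% and 53.0% of all genes), 4, 6 and 6 at P7 (53.3%, 79.9% and 75.0%) and 4, 6 and 6 at P35 (59.2%, 80.0% and 77.2%). In 40 contrasts both genotypes passed, and all 40 had the same direction in both.

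Between periods, 25 of 36 contrasts passed in WT mice. From E17.5 to P7, 4 of 6 genes passed in CX (81.9% of all genes), 4 in HIP (78.0%) and 6 in CB (71.2%), and from P7 to P35, 3 in CX (67.7%), 3 in HIP (62.7%) and 5 in CB (79.4%). In HET mice 31 of 36 passed, namely 5, 5 and 6 from E17.5 to P7 (85.3%, 79.2% and 75.1%) and 5, 4 and 6 from P7 to P35 (73.1%, 65.0% and 79.3%), and the 25 passed in both genotypes had the same direction in both. In bulk tissue a lower level can come from fewer cells of the type that makes the RNA or from less RNA per cell, and these cannot be told apart here.

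**Figure D1:**
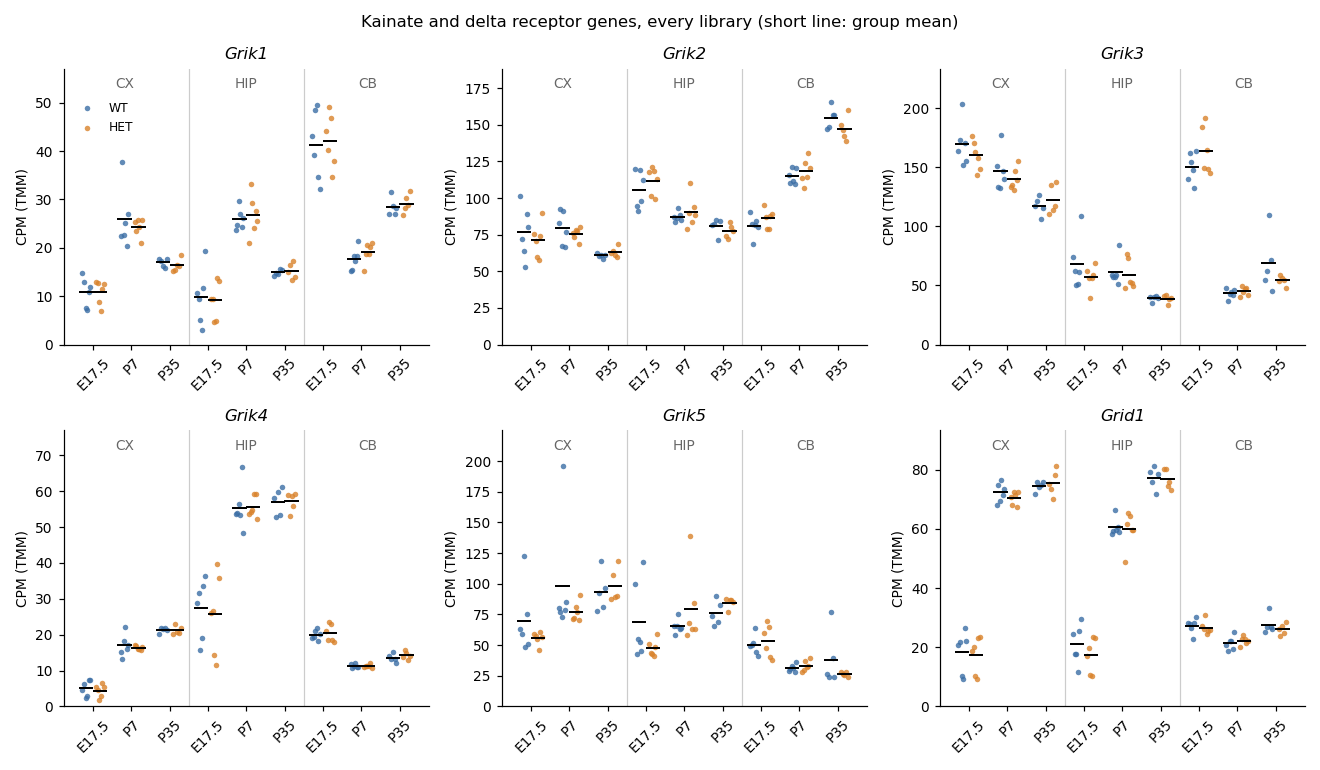
Level of each of the 6 genes in CPM (TMM-scaled, linear axis) in every library, by region and period, with WT and HET libraries side by side and a short line at each group mean. Grik4 is highest in P7 and P35 HIP, Grik2 in P35 CB, Grik1 in E17.5 CB and Grik3 in E17.5 CX and CB, while WT and HET points lie over each other in all panels and single Grik5 points stand far above their group.

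Grik1 encodes GluK1, a low-affinity subunit known from interneurons and sensory neurons. It was highest in embryonic CB. The 6 WT libraries of E17.5 CB held 32.1 CPM at the lowest, 41.2 at the median and 49.6 at the highest, against 7.10, 11.5 and 14.8 CPM in CX and 3.08, 10.0 and 19.2 CPM in HIP. Every CB library was above every CX and HIP library. The difference was -2.04 ± 0.31 for CX minus CB (SE, log2, edgeR adjusted p = 8.22e-05) and -2.22 ± 0.32 for HIP minus CB (edgeR adjusted p = 7.57e-05). Without the embryonic mice whose names hold S3, which stood apart as given further on, the latter was -1.56.

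At P7 the order of regions for Grik1 was the reverse. CX held 20.3, 23.8 and 37.7 CPM (lowest, median, highest), HIP 23.7, 25.5 and 29.6 and CB 15.2, 17.8 and 21.5, so that HIP did not overlap CB and CX overlapped it narrowly. Both CX and HIP were higher than CB by 0.49 ± 0.11 (edgeR adjusted p = 0.000926 and 0.00097). In adults CB was again the higher, with 27, 31.6, 28.6, 27 and 28.1 CPM in the 5 WT mice against 15.9 to 17.8 CPM in CX and 14.2 to 15.6 CPM in HIP, and differences of -0.74 ± 0.06 and -0.94 ± 0.06.

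Over development Grik1 therefore moved in opposite directions in forebrain and CB. From E17.5 to P7 it rose by 1.19 ± 0.17 in CX and by 1.38 ± 0.27 in HIP and fell by 1.24 ± 0.11 in CB. From P7 to P35 it fell by 0.57 ± 0.18 in CX and by 0.77 ± 0.28 in HIP and rose by 0.70 ± 0.11 in CB. In HET mice the same 6 contrasts passed with the same directions, for instance 1.08 ± 0.12 in CX and -1.15 ± 0.09 in CB for P7 minus E17.5. Ordered by WT mean, E17.5 CB (41.2 ± 7.18 CPM, SD, n = 6) stood clear of P35 CB (28.5 ± 1.86, n = 5), and the groups below overlapped their neighbours except P35 CX (17 ± 0.866) over P35 HIP (15 ± 0.579).

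Grik2 encodes GluK2, the low-affinity subunit best known from mossy fibre synapses of the hippocampus, whose transcript is recoded by RNA editing. Its levels varied least among the low-affinity genes, 2.55-fold between the highest and lowest WT group mean, against 4.18-fold for Grik1 and 4.33-fold for Grik3. In adults it was highest in CB, where the 5 WT mice held 147, 148, 166, 157 and 157 CPM, against 81.4, 82.6, 85.1, 71.1 and 84.6 CPM in HIP and 62.3, 60.6, 61.3, 58.4 and 61.4 CPM in CX. No library of 1 region overlapped another region. CX was lower than CB by 1.34 on the log2 scale (SE 0.05) and lower than HIP by 0.39 (SE 0.05).

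Before birth the region order of Grik2 was another one. At E17.5 the 6 WT libraries of HIP held 91.0, 105 and 120 CPM (lowest, median, highest), those of CB 68.4, 81.8 and 90.2 and those of CX 53.1, 76.3 and 101. HIP lay above CB without overlap, by 0.39 ± 0.11 (edgeR adjusted p = 0.0098), and above CX with overlap, by a difference of -0.51 ± 0.11 for CX minus HIP (edgeR adjusted p = 0.00211). Without the embryonic mice whose names hold S3 the latter was -0.33. Grik2 then rose in CB at both steps, by 0.49 ± 0.06 to P7 and by 0.45 ± 0.06 to P35, and fell in HIP by 0.29 ± 0.07 to P7 and in CX by 0.35 ± 0.13 from P7 to P35. For CX from E17.5 to P7 the difference was 0.01 ± 0.12 (edgeR adjusted p = 0.967).

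Grik3 encodes GluK3, a low-affinity subunit of low sensitivity to glutamate that is known from presynaptic sites. CX stayed above HIP at every period. The WT libraries of CX held 152, 167 and 204 CPM at E17.5 and 132, 143 and 178 CPM at P7 (lowest, median, highest), and 118, 121, 127, 107 and 116 CPM at P35. HIP held 50.1, 61.7 and 109 CPM at E17.5, 51.1, 57.9 and 84.5 CPM at P7 and 40.0, 35.5, 40.1, 41.1 and 39.7 CPM at P35. The regions did not overlap at any period, and CX minus HIP was 1.33 ± 0.15, 1.29 ± 0.09 and 1.60 ± 0.15 at the 3 periods.

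In CB, Grik3 fell steeply after birth. CB held 133, 151 and 164 CPM at E17.5, a difference of 0.16 ± 0.14 for CX minus CB (edgeR adjusted p = 0.356), and 36.5, 43.7 and 47.6 CPM at P7. The fall was 1.81 ± 0.15 on the log2 scale in WT and 1.87 ± 0.08 in HET mice, without overlap between the periods. In CX, Grik3 fell by 0.26 ± 0.08 at this step and by 0.29 ± 0.08 to P35, and in HIP it fell by 0.61 ± 0.17 from P7 to P35. At P35, CB of the WT mice held 54.4, 61.9, 110, 72.0 and 45.7 CPM, the widest spread of Grik3 at this period, and the step from P7 was 0.67 ± 0.15 in WT (0.44 without the WT libraries numbered 3, that with 110 CPM among them) and 0.28 ± 0.08 in HET mice (0.19 with upper-quartile scaling).

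Grik4 encodes GluK4, a high-affinity subunit known from CA3 pyramidal cells and dentate granule cells of the hippocampus. It varied most of the 6 genes, 11.1-fold between the highest and lowest WT group mean. At P7 the 6 WT libraries of HIP held 48.3, 53.7 and 66.7 CPM (lowest, median, highest), against 13.1, 16.6 and 22.1 CPM in CX and 10.8, 11.2 and 12.1 CPM in CB. At P35 the 5 WT libraries held 58.1, 52.9, 59.9, 53.5 and 61.1 CPM in HIP, 20.1, 21.8, 21.5, 21.7 and 21.2 CPM in CX and 14, 13.3, 15.1, 13.3 and 12 CPM in CB. All 3 regions were apart from each other at both periods.

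HIP exceeded CB in Grik4 by 2.21 ± 0.09 at P7 (log2, edgeR adjusted p = 3.44e-12) and by 2.07 ± 0.06 at P35 (edgeR adjusted p = 1.85e-11). At E17.5 the difference of HIP from CB did not pass in WT mice (0.37 ± 0.20, edgeR adjusted p = 0.168). Nor did it pass in HET mice (0.15 ± 0.26, edgeR adjusted p = 0.668). CX minus HIP was -2.47 ± 0.22 at E17.5, -1.69 ± 0.08 at P7 and -1.41 ± 0.06 at P35. At E17.5 CB (18.4, 19.8 and 21.8 CPM) was above CX (2.49, 5.45 and 7.46 CPM) by a difference of -2.10 ± 0.22 for CX minus CB, the opposite of the later periods, when CX was higher by 0.52 ± 0.09 and 0.66 ± 0.06. Grik4 rose by 1.67 ± 0.22 in CX and by 1.0 ± 0.16 in HIP from E17.5 to P7, fell by 0.83 ± 0.06 in CB and then rose by 0.27 ± 0.07 in CB to P35. Without the embryonic mice whose names hold S3, the rises to P7 were 1.36 in CX and 0.76 in HIP. The E17.5 difference for CX minus CB was then -1.63. The differences from P7 to P35 in CX (0.36 ± 0.22) and HIP (0.07 ± 0.16) did not pass in WT mice.

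Grik5 encodes GluK5, the most widely expressed high-affinity subunit. After birth it was higher in forebrain than in CB. At P7 the WT libraries of CX held 72.9, 79.0 and 196 CPM (lowest, median, highest), those of HIP 58.3, 64.6 and 75.3 and those of CB 27.9, 31.1 and 36.3. CB lay below both other regions without overlap, by 1.51 ± 0.15 against CX and 0.98 ± 0.15 against HIP. CX was above HIP by 0.53 ± 0.15, and by 0.32 without the mouse of cortex replicate 4, which held the 196 CPM. At P35 CX held 77.7, 92.8, 119, 81.4 and 96.7 CPM, HIP 73.5, 65.4, 89.9, 68.5 and 83.0 CPM and CB 26.6, 23.6, 76.8, 39.3 and 24.3 CPM. Only replicate 3 of CB reached the range of HIP, and no CB library reached that of CX. The differences were 1.40 ± 0.20 for CX minus CB and 1.1 ± 0.20 for HIP minus CB in WT mice. They were 1.92 ± 0.09 and 1.69 ± 0.09 in HET mice, whose 5 CB libraries held only 24.0 to 28.3 CPM.

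Between embryonic regions Grik5 did not pass in either genotype, the largest WT difference being 0.42 ± 0.27 for CX minus CB (edgeR adjusted p = 0.212). Of its period contrasts only the fall in CB from E17.5 to P7 passed in WT mice, by 0.69 ± 0.22. In HET mice Grik5 also rose by 0.39 ± 0.08 in CX and by 0.70 ± 0.17 in HIP over the same step (0.43 without the HET libraries numbered 3, that of P7 with 139 CPM among them). From P7 to P35 it rose by 0.41 ± 0.09 in CX of HET mice. In CB of HET mice the difference for P35 minus P7 was -0.30 ± 0.14 (edgeR adjusted p = 0.0587, and 0.102 with replicate number as a block). The WT estimate for that contrast had the other sign, 0.29 ± 0.23, and did not pass (edgeR adjusted p = 0.264). The WT difference in CX from E17.5 to P7 was 0.44 ± 0.25 (edgeR adjusted p = 0.114), and it turned on single replicates. Without the WT libraries numbered 3 at every period, that of E17.5 with 123 CPM among them, it was 0.74 (edgeR adjusted p = 0.00765), and without those numbered 4, that of P7 with 196 CPM among them, it was 0.0416 (edgeR adjusted p = 0.843).

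Grid1, the delta receptor gene, rose in forebrain after birth and kept a low level in CB. The 6 WT libraries of E17.5 held 9.44, 21.3 and 26.4 CPM in CX, 11.7, 21.1 and 29.5 in HIP and 23, 28.0 and 30.1 in CB (lowest, median, highest). At P7 they held 68.1, 72.5 and 76.6 CPM in CX, 58.2, 59.6 and 66.5 in HIP and 18.8, 21.5 and 25.2 in CB. The rise was 1.92 ± 0.19 in CX (log2, edgeR adjusted p = 3.06e-08) and 1.5 ± 0.15 in HIP (edgeR adjusted p = 5.35e-08), with no overlap between the periods. In CB Grid1 fell by 0.36 ± 0.08.

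In adults CX held 71.8, 75.8, 74.3, 75.0 and 75.9 CPM of Grid1, HIP 79.3, 75.9, 81.2, 71.8 and 78.5 CPM and CB 25.2, 26.8, 33.4, 26.8 and 26.2 CPM. CX and HIP overlapped, and both were above CB, by 1.44 ± 0.06 and 1.48 ± 0.06. The coefficient of variation of Grid1 within adult groups ran from 2.24% in WT CX to 11.7% in WT CB, where replicate 3 held 33.4 CPM. At E17.5 the region order was the other way round, CX minus CB being -0.68 ± 0.16 and HIP minus CB -0.43 ± 0.16 (edgeR adjusted p = 0.0407), and the latter was not past the threshold when the mouse block was left out (adjusted p = 0.218) or without the WT mouse of cortex replicate 4 (adjusted p = 0.121). The rise of Grid1 in WT HIP from P7 to P35, 0.38 ± 0.15, was not past the threshold without replicate 1 (edgeR adjusted p = 0.108).

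**Figure D2:**
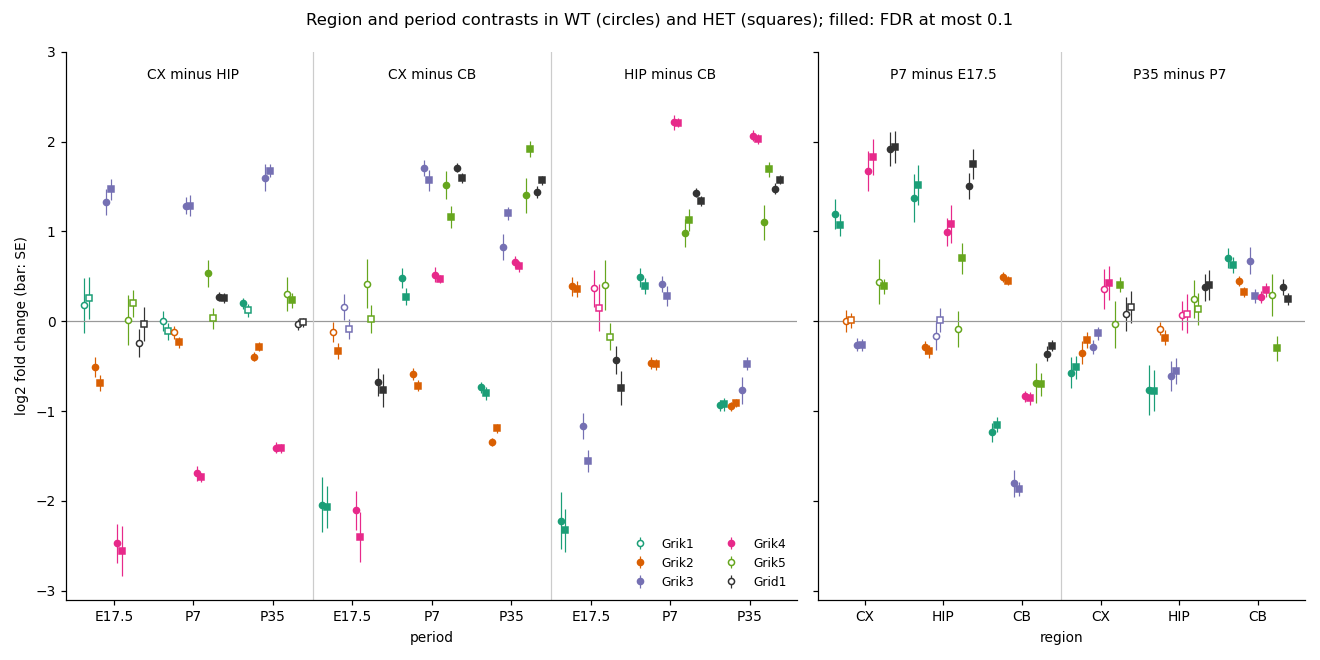
Log2 fold change of each gene between regions (left, by period) and between periods (right, by region), with circles for WT, squares for HET, bars for the SE and filled symbols for an edgeR adjusted p of at most 0.1. WT and HET symbols mostly lie close together, with wider gaps for some contrasts of Grik5 and Grik3. WT Grik4 reaches -2.47 for E17.5 CX minus HIP and 2.21 for P7 HIP minus CB. CX minus CB changes sign between E17.5 and P7 for Grik1, Grik4 and Grid1 in both genotypes.

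The change over development differed between regions for all 6 genes, as did that of 87.7% of all genes in WT and 87.8% in HET mice. The test of the 4 region-by-period terms gave an edgeR adjusted p of 8.35e-16 for Grid1, 1.91e-13 for Grik4, 1.04e-11 for Grik2, 2.05e-09 for Grik1, 5.55e-09 for Grik3 and 0.0212 for Grik5 in WT mice. In HET mice the largest of the 6 values was that of Grik5, 2.42e-10.

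Levels of different genes can be compared only per length, and for this the CPM were divided by the length of the exons of each gene. The share of each gene in the sum of the 5 kainate genes then gives the make-up of the family, with the caution that RNA shares are not subunit shares. Grik3 held the largest share in E17.5 CX (47.0% ± 3.91, SD, n = 6) and E17.5 CB (39.9% ± 3.33) of WT mice. Grik5 held it in E17.5 HIP (36.9% ± 7.10), P7 CX (38.1% ± 7.22), P7 HIP (32.2% ± 1.86), P35 CX (42.9% ± 3.48) and P35 HIP (39.6% ± 2.22). In P7 CX this rested on WT replicate 4, without which Grik3 (36.3%) led Grik5 (35.1%), as it did in HET mice (36.7% against 34.9%). The order also depended on the length used. With the longest transcript as length, Grik5 led Grik3 there in WT (39.5% against 28.4%) and in HET mice (36.4% against 30.0%).

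In CB the leading gene changed with age, from Grik3 before birth to Grik2, which held 36% ± 1.09 at P7 and 36.2% ± 5.82 at P35 against 14.6% ± 1.79 at E17.5. Grik4 took 13.5% ± 3.83 of the sum in E17.5 HIP, 23.8% ± 2.81 in P7 HIP and 25.9% ± 0.661 in P35 HIP, and 8.57% ± 0.722 or less in every WT group of CX and CB. Grik1 held its largest WT share in E17.5 CB, 14.5% ± 1.86, and its smallest in E17.5 HIP, 4.03% ± 1.62. Of the high-affinity genes, Grik5 had the larger mean share per length in each of the 9 WT groups. Between genotypes none of 45 shares passed an exact two-sided permutation test after adjustment over the 45 (lowest adjusted p = 0.714). Before adjustment 3 were under 0.05 in the exact two-sided permutation test, the lowest at p = 0.0397. With 5 mice of each genotype at P35, a lone share could not pass this test after adjustment, even with full separation of the genotypes. With 6 of each at E17.5 and P7, a lone share could pass only with full separation. The lack of calls therefore does not show that the shares were alike.

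**Figure D3:**
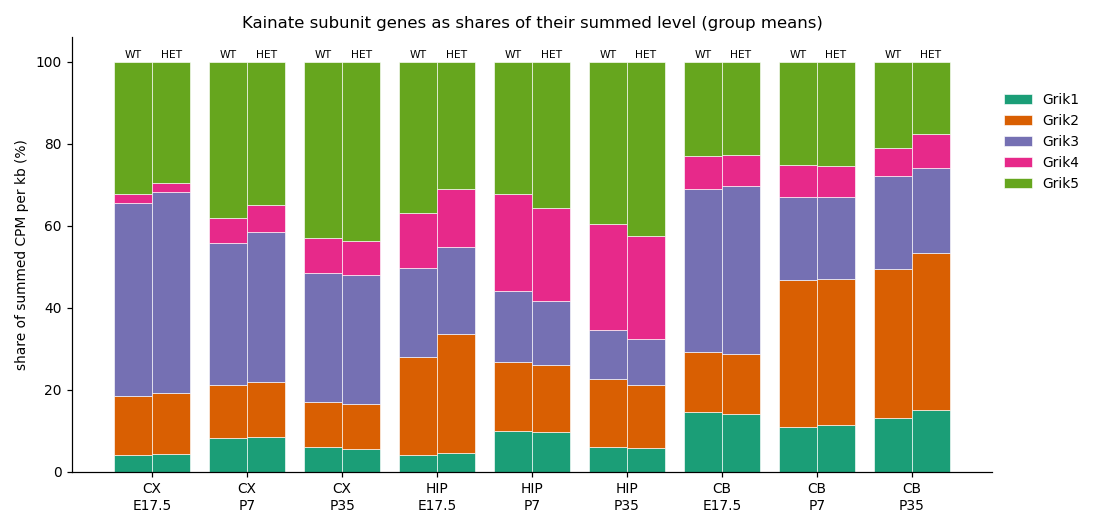
Mean share of each kainate gene in the summed CPM per kilobase of exon of the 5 genes, in percent, stacked for the WT and HET groups of each region and period. The Grik3 share shrinks from 47.0% in E17.5 CX to 31.4% in P35 CX while that of Grik5 grows to 42.9%, the Grik4 share is widest in HIP, and Grik2 leads in P7 and P35 CB.

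None of the 6 genes differed between HET and WT mice past the threshold. Over all datasets 0 of 54 tests passed in edgeR's quasi-likelihood test (lowest adjusted p = 0.371), and DESeq2 gave 0 as well. Before adjustment 1 of 54, Grik5 in E17.5 HIP, was under 0.05, where 1.67%, 2.29% and 3.5% of all genes were in E17.5 CX, HIP and CB, 3.23%, 5.05% and 4.89% at P7 and 3.67%, 6.25% and 14.4% at P35. In edgeR's test Cul3 was the 1 gene called in each dataset, which is 0.00603%, 0.00586% and 0.00568% of the genes tested in E17.5 CX, HIP and CB, 0.00566%, 0.00563% and 0.0057% at P7 and 0.00569%, 0.00584% and 0.00584% at P35. The differences of Grik1, Grik2, Grik4 and Grid1 lay between -0.29 ± 0.25 (Grid1, E17.5 HIP) and 0.13 ± 0.09 (Grik1, P7 CB) in all 9 datasets, and for Grid1 in P35 CX the estimate was 0.04 ± 0.04.

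Neither did the genotype effect differ between regions or periods past the threshold for any of the 6 genes. The interaction with region passed in 0 of 18 tests (lowest adjusted p = 0.292, 1 under 0.05 before adjustment), where it passed in 0.0% of all genes at E17.5 and P7 and in 0.00525% at P35. The interaction with period passed in 0 of 18 tests (lowest adjusted p = 0.345, 2 under 0.05 before adjustment), where it passed in 0.0% of all genes in each region.

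The widest genotype differences were those of Grik5, and in several datasets they rested on single libraries. In P35 CB the WT mice held 26.6, 23.6, 76.8, 39.3 and 24.3 CPM and the HET mice 28.3, 26.8, 25.8, 27.8 and 24.0 CPM. The difference was -0.54 ± 0.29 (log2, edgeR adjusted p = 0.373), and -0.13 without WT replicate 3. The same library held 110 CPM of Grik3, where the other 4 WT mice held 45.7 to 72.0 CPM, and the Grik3 difference of -0.36 ± 0.19 was -0.13 without it. In P7 CX the difference of -0.34 ± 0.21 was -0.03 without WT replicate 4, which held 196 CPM against 72.9 to 85.0 CPM in the other 5 WT mice.

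At E17.5, WT replicate 3 held 123 CPM of Grik5 in CX against 48.3 to 75.5 CPM in the others, and the difference of -0.33 ± 0.20 was -0.08 without it. In HIP, WT replicate 1 held 99.8 and replicate 6 held 117 CPM against 43.1 to 54.6 CPM in the other 4, the difference was -0.53 ± 0.24, and it was -0.41 without replicate 1 and -0.32 without replicate 6. In P7 HIP the high library was a HET one, replicate 3 with 139 CPM against 58.5 to 84.0 CPM in the others, and the difference of 0.28 ± 0.18 was 0.04 without it.

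Over the 102 libraries used, 7 held at least 1.5 times the median Grik5 level of the other libraries of their group. In 6 of these 7, genes that the annotation types as sense-intronic or as TEC, a class of gene models that still awaits experimental support, took a larger share of the counts than the median of the other libraries of the group. The share was 0.299% against 0.238% for E17.5 CX WT replicate 3, 0.307% against 0.217% for P7 CX WT replicate 4, 0.250% against 0.152% for P7 HIP HET replicate 3 and 0.248% against 0.197% for P35 CB WT replicate 3. The library that went the other way was WT replicate 5 of P35 CB, with 0.204% against 0.210%. A share above such a median is common in any group. In E17.5 CX, WT replicates 1 and 5 had larger shares than replicate 3, 0.327% and 0.306%. Their Grik5 levels were only 1.06 and 1.28 times the median of the others. Within datasets of 10 or 12 libraries the Pearson correlation of the Grik5 level with this share ran from -0.226 in P35 HIP to 0.732 in P7 HIP. It is a description only, since the libraries of a dataset also differed in depth, from 15126114 to 32356954 counts in E17.5 HIP. The part of this share in the Grik5 levels was not tested.

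**Figure D4:**
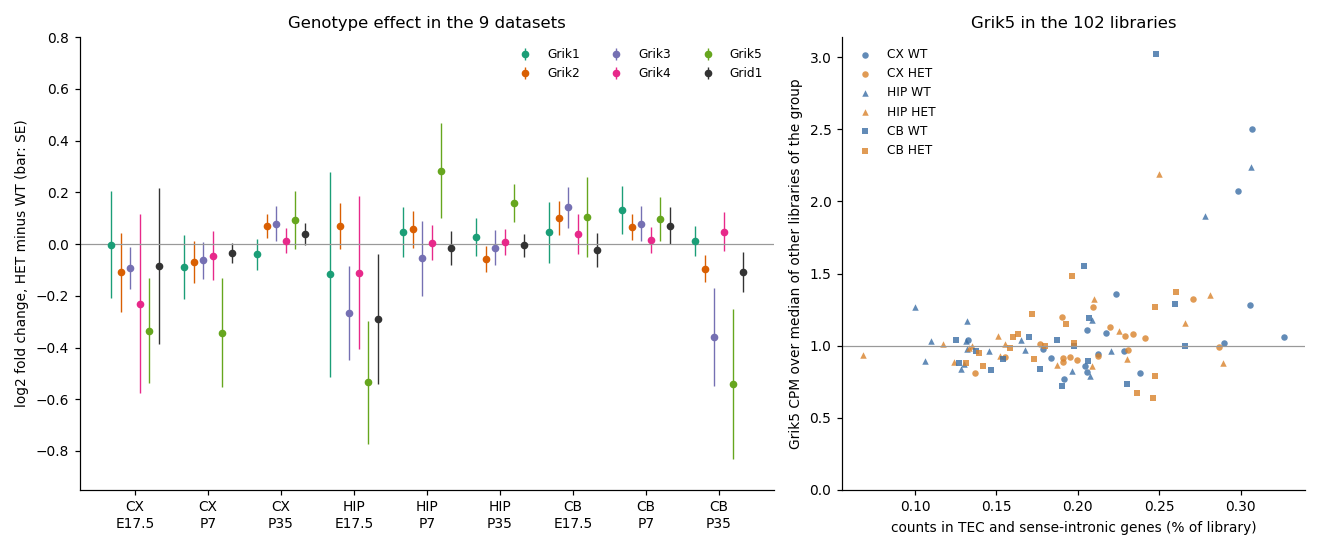
Left, log2 fold change of each gene, HET minus WT, in the 9 datasets with bars for the SE, none past an adjusted p of 0.1. Right, the Grik5 level of each of the 102 libraries divided by the median of the other libraries of its group (linear axis) against the percentage of its counts in TEC and sense-intronic genes, where the highest point, at 3.02, is WT replicate 3 of P35 CB.

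The embryonic libraries fell apart by a part of the mouse name. The names of the E17.5 mice in the labels carry S2, S3 or S4, with 2 WT and 2 HET mice under each, and the labels do not say what it stands for. This split was looked at after the values had been seen. In CX the 4 mice named S3 held 9.36 to 10.4 CPM of Grid1 against 18.6 to 26.4 CPM in the other 8, 6.93 to 8.81 CPM of Grik1 against 11 to 14.9 CPM, 1.83 to 2.80 CPM of Grik4 against 4.47 to 7.46 CPM and 53.1 to 64.1 CPM of Grik2 against 70.9 to 101 CPM. None of these ranges overlapped, whereas those of Grik3 and Grik5 did. In HIP the S3 mice were lower without overlap in Grik1 (3.08 to 5.00 against 9.37 to 19.2 CPM), Grik4 (11.7 to 19.1 against 26 to 39.6 CPM) and, by a narrow margin, Grik3 (39.1 to 56.3 against 56.4 to 109 CPM). In CB they were the higher ones in Grik1 (46.8 to 49.6 against 32.1 to 44.2 CPM) and Grik4 (21.1 to 23.5 against 18.1 to 21.0 CPM).

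As differences of the S3 mice from the mean of the other names, these came to -1.16 ± 0.07 for Grid1, -1.26 ± 0.14 for Grik4, -0.73 ± 0.08 for Grik1 and -0.48 ± 0.10 for Grik2 in CX. They were -1.42 ± 0.16 for Grik1, -1.08 ± 0.11 for Grik4, -0.83 ± 0.12 for Grid1 and -0.46 ± 0.15 for Grik3 in HIP, and 0.44 ± 0.08 for Grik5, 0.35 ± 0.05 for Grik1, 0.23 ± 0.05 for Grik4 and -0.17 ± 0.05 for Grik2 in CB. Those 12 passed, 4 of 6 genes in each region, where 48.6%, 38.2% and 33.2% of all genes passed in CX, HIP and CB. The names of the P7 mice carry C1, C2 or C4, and none of the 6 genes passed a test of that term in a region, where 2.17%, 0.0% and 0.0742% of all genes did.

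Marker levels moved with the S3 name. The summed interneuron markers (Gad1, Gad2, Sst, Npy, Vip and Lhx6) were 117 to 129 CPM in CX of the S3 mice against 155 to 204 CPM in S2 and 166 to 177 CPM in S4, and 43.7 to 76.5 CPM in HIP against 102 to 130 and 141 to 223 CPM. The summed neuron markers (Snap25, Syt1 and Rbfox3) were 260 to 300 CPM in CX against 358 to 434 CPM in the others, and the summed Purkinje cell markers in CB 225 to 325 CPM against 413 to 632 CPM. Some other lists overlapped or were higher in the S3 mice. In CB the interneuron markers were 188 to 201 CPM in S3 against 182 to 204 CPM, in HIP the list of cerebellar granule cells, which holds Neurod1, was 257 to 302 CPM against 165 to 227 CPM, and in CX the thalamus markers were 37.5 to 41.5 CPM against 30.6 to 33.3 CPM. Their part in the receptor levels was not tested. Without the S3 mice, Grid1 in WT mice rose from E17.5 to P7 by 1.61 in CX and 1.31 in HIP, Grik1 differed by -1.58 for CX minus CB and -1.56 for HIP minus CB at E17.5, and Grid1 differed by -0.36 for CX minus CB. In HET mice Grid1 differed by -0.35 for both CX minus CB and HIP minus CB, in place of -0.77 and -0.74. The embryonic HIP minus CB difference of Grid1 in WT mice was then -0.25 and did not pass (edgeR adjusted p = 0.119).

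**Figure D5:**
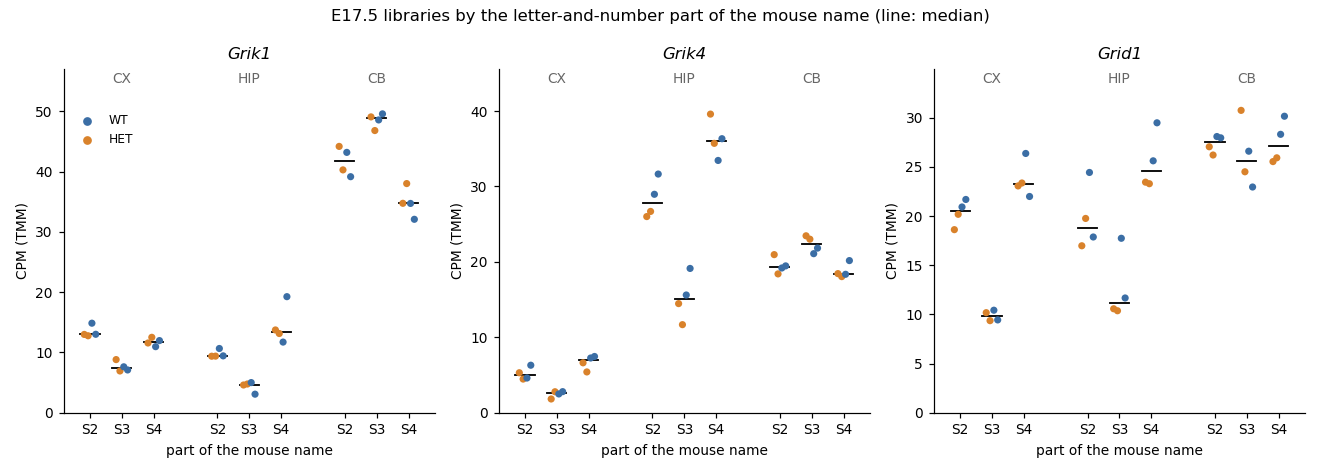
CPM (linear axis) of Grik1, Grik4 and Grid1 in the E17.5 libraries of CX, HIP and CB, split by the part of the mouse name (S2, S3 or S4, 4 mice each), with WT and HET points and a line at the median. In CX the S3 points of Grid1 lie between 9.36 and 10.4 CPM, under all others.

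Partners of the receptors were described from a list of 21 genes, among them auxiliary subunits (Neto1, Neto2), the cerebellins and C1q-like proteins that bind receptors from the cleft, neurexins, scaffold proteins, RNA editing enzymes and modifiers. In WT mice 156 of 186 region contrasts and 107 of 126 period contrasts of these genes passed, beside 46.5% to 82.9% of all genes in the single region contrasts and 62.7% to 81.9% in the period contrasts given above. From E17.5 to P7, 16 were higher and 4 lower in CX with a median log2 difference of 1.48, and 15 higher and 2 lower in HIP with a median of 1.142, while 6 were higher and 12 lower in CB with a median of -0.21. The medians over all genes tested were 0.0117, -0.00454 and -0.00507 in the same contrasts.

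Neto1, an auxiliary subunit of kainate receptors, rose by 1.78 ± 0.21 in CX and by 1.83 ± 0.30 in HIP and fell by 1.72 ± 0.16 in CB from E17.5 to P7. At P35 it was higher in HIP than in CB by 5.54 ± 0.16. Neto2, the other auxiliary subunit, was higher in CX than in HIP at every period, by 1.18 ± 0.08, 0.85 ± 0.04 and 0.34 ± 0.06, as was Grik3.

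The cerebellins, the binding partners of delta receptors in the list, were divided between regions too. Cbln1, the cerebellin of granule cells, was lower in HIP than in CB by 8.49 on the log2 scale (SE 0.21) at P35, and Cbln2 and Cbln4 were higher in HIP by 5.52 ± 0.30 and 3.89 ± 0.26. At E17.5 the direction of Cbln2 and Cbln4 was the opposite, with both lower in HIP than in CB in WT and in HET mice. Of the C1q-like proteins, which the list holds apart from the cerebellins, C1ql2 and C1ql3 are released at mossy fibre synapses. Their genes were higher in HIP than in CB at P35 by 7.39 ± 0.18 and 3.74 ± 0.13, whereas at E17.5 C1ql3 was lower in HIP. Adarb1, the enzyme that recodes Grik2, rose in all 3 regions from E17.5 to P7, by 1.51 ± 0.11 in CX, 1.42 ± 0.09 in HIP and 0.57 ± 0.09 in CB, and editing itself was not measured here. Between genotypes 0 of 184 tests of the 21 genes passed in edgeR's test (lowest adjusted p = 0.344).

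Genes with patterns most like each receptor gene were found by Pearson correlation of the mean log2 CPM over the 9 WT groups among 9089 genes, as a description of 9 points that share mice and libraries. For Grid1 they were Rab27b (r = 0.99), Sprn, Nek10, Rab6b and Kcnk4, and for Grik5 Wdr17 (r = 0.98), Kcnq3, Ephb6, Atxn7l3 and Kcng3. For Grik4 they were Rsph4a (r = 0.96), Gm973, Pygb, Cfap65 and Aqp11, and for Grik2 Tex261 (r = 0.97), Afap1l2, Rhod, Rangrf and Mtch2. For Grik3 they were Map3k9 (r = 0.93), Cux2, Adgrl2, Sema3f and Grip2, and for Grik1 Sfmbt2 (r = 0.93), Ghdc, Plcxd3, Clgn and Tmem132e. In the 9 HET groups all 5 genes named for Grik1 were again among its nearest 5, and 1 of those named for Grik5. Among the receptor genes themselves the lowest correlation was that of Grik2 with Grik5, -0.82 in WT and -0.89 in HET, and the highest that of Grik4 with Grid1 in WT (0.66) and of Grik5 with Grid1 in HET (0.75).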

How the data were processed

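Estimated gene counts (RSEM expected counts, paired-end RNA-seq) were deposited by the authors for all 108 libraries. Per the submitters' processing notes, cutadapt 1.14, STAR 2.5.3a, RSEM 1.3 and the builds GRCm38.p5 and mm10 were used. Of the values, 5.76% were not whole (tolerance 1e-09), and all were rounded. Totals ran from 15126114 to 44411282 counts (median 32663960).

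Groups followed the labels. The 6 libraries of 2 adult mice with contradictory genotypes were left out. Counts were filtered with filterByExpr (minimum count 10, minimum total 15), TMM-scaled and tested with edgeR 4.0.16 (quasi-likelihood, R 4.3.3). Region contrasts had mouse as a block. P-values were adjusted over all genes tested (Benjamini-Hochberg, threshold 0.1). CPM used one TMM scaling over 102 libraries and 20859 genes, SE is the fold change over the square root of F, and gene lengths are unions of exons. Of 53465 gene IDs 53360 matched GENCODE vM21.

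DESeq2 1.42.0, RUVs (3 factors), upper-quartile scaling, no filter, blocks and libraries left out in turn were tried. The fits were tested on simulated data. The 6 genes and all lists were chosen with earlier results of these data known. Named genes were the 6, Cul3, the 21 partners and, for each receptor gene, the 5 protein-coding genes of highest r among those with at least 5 CPM in a WT group and a range of at least 1 in log2 CPM. The samples of a group were separate mice. A few values, among them the levels of the cortex markers, are not reported here.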

Additional observations from a re-analysis of the deposited data

Results flagged for a closer look

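In 11 of 108 groups of libraries of the 6 genes, the highest or lowest library lay far from the others by Dixon's criterion, which chance meets in about 1 in 20 groups. Grik5 had 5 of them. Its highest libraries were WT replicate 3 of E17.5 CX (123 CPM), WT replicate 4 of P7 CX (196 CPM) and HET replicate 3 of P7 HIP (139 CPM), and its lowest were HET replicate 4 of E17.5 CX (46.3 CPM) and HET replicate 2 of P35 HIP (76.8 CPM). Grid1 had 3, namely WT replicate 3 (66.5 CPM, highest) and HET replicate 1 (48.8 CPM, lowest) of P7 HIP and WT replicate 3 of P35 CB (33.4 CPM, highest). Grik3 had WT replicate 6 of P7 HIP (84.5 CPM, highest) and WT replicate 2 of P35 HIP (35.5 CPM, lowest), and Grik2 had WT replicate 5 of P35 HIP (71.1 CPM, lowest).

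The change over the periods differed between regions for each gene in edgeR's test of the region-by-period terms. The adjusted p was 8.35e-16 (WT) and 1.22e-14 (HET) for Grid1, 2.05e-09 and 1.08e-11 for Grik1, 1.04e-11 and 3.00e-12 for Grik2, 5.55e-09 and 4.00e-12 for Grik3, 1.91e-13 and 2.12e-12 for Grik4, and 0.0212 and 2.42e-10 for Grik5. Of all genes 87.7% (WT) and 87.8% (HET) passed the same test.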

How the results depend on the processing

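Over the alternatives the number of contrasts passed was 41 to 44 of 54 for region and 24 to 28 of 36 for period in WT mice and 42 to 45 and 28 to 33 in HET mice, and no direction of a called contrast reversed. The genotype effect passed for none of the 6 genes under any alternative run for it, DESeq2 and RUVs included, nor did its interactions with upper-quartile scaling or with the 2 mice added. Over all genes, where edgeR called 1 in each dataset, DESeq2 called 1 to 211 (most in P35 CB) and RUVs 1 to 190 (most in P35 HIP, then 129 in P7 HIP, 64 in E17.5 HIP and P7 CB and 63 in P35 CB). Of the 30 genes named as most like the receptor genes, 29 were again among the nearest 5 with upper-quartile scaling and 17 with HET in place of WT group means. Leaving out the E17.5 mice named S3, chosen after seeing the data, gave 42 and 28 in WT and 45 and 33 in HET mice. With the longest transcript as length, 65 mean shares moved by more than 1 SD and 0 genotype calls changed, and in HET mice of E17.5 HIP Grik2 (32.8%) then led Grik5 (31.9%), where by union of exons Grik5 (31.1%) led Grik2 (29.0%). In HET mice of P7 CX Grik5 (36.4%) then led Grik3 (30.0%), where by union of exons Grik3 (36.7%) led Grik5 (34.9%). In HET mice the contrasts that lost the threshold under at least 1 alternative were Grik2 and Grik3 in CX, Grik2 and Grid1 in HIP, Grik4 in CX and Grik5 in CB from P7 to P35, Grik3 between HIP and CB at P7, and Grik5 between CX and HIP at P35, and in WT mice Grik2 in CX from P7 to P35 without replicate 2 (edgeR adjusted p = 0.101), Grid1 in HIP over the same step (0.105 with the replicate block, 0.108 without replicate 1) and Grid1 between HIP and CB at E17.5 (0.119 to 0.218 under 3 alternatives). The cause was not tested.

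With the replicate number as a block, 0 of 54 genotype tests passed, and 24 period contrasts passed in WT (25 without it) and 28 in HET mice (31 without it). In 0 of 9 datasets did every same-numbered pair of WT and HET libraries correlate above 0.1. This rule cannot decide on pairing, since it fails on 1 pair and same-numbered mice shared the name part at E17.5 and P7. The median same-number correlation was 0.342, 0.235 and 0.232 in E17.5 CX, HIP and CB, against -0.0803, -0.0599 and -0.0205 for other pairs. It was -0.0294 against -0.012 in P7 HIP. In E17.5 CX, 5 of 6 pairs exceeded 0.1, and 3 of 6 mice correlated best with their own number. There the block moved the calls over all genes from 1 to 55. The Cul3 difference in P35 CB was -0.73 with the replicate block (edgeR adjusted p = 0.114). Without the mouse block, 41 region contrasts passed in WT and 43 in HET mice.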
